A study of Mus musculus with 12 samples.

Results

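The cytosolic ribosomal protein genes were represented by 170 spotted cDNA clones of 71 genes, among 15600 clones and 6786 named genes on the array. Members were taken by gene symbol: Rpl or Rps followed by a digit, Rplp1, Rplp2, Rpsa and Fau. Left out were 4 clones of ribosomal S6 kinases, 2 of pseudogenes and 6 whose probe entry lists several symbols. Of the 71 genes, 45 belong to the large subunit (109 clones) and 26 to the small subunit (61 clones). No value enters the symbol rule, but the family itself was selected on the difference between the groups: 4 of its genes (Rps24, Rps29, Rps25 and Rpl38) had ranked among the lowest genes of these same arrays. The brightness of ribosomal protein clones had also been used to check how spots were matched to clones. Differences between the groups and brightness are therefore given for the family as descriptions, and no p-value of that difference counts as support.

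Kidney cortex RNA came from 3 menopausal/diabetic mice, treated with VCD and STZ, and from 3 diabetic mice, treated with STZ. STZ (streptozotocin) kills the insulin-making beta cells, and VCD (vinylcyclohexene diepoxide) depletes the small follicles of the ovary and so models menopause. All 6 mice had received STZ, and cortex was taken 6 weeks after it. No group without STZ and no group with VCD alone was used here, and the sources used here do not state strain or age. Pairs of animals were hybridised to 12 arrays, 1 dye per animal. Of these, 6 paired a menopausal/diabetic with a diabetic mouse, 3 paired menopausal/diabetic mice and 3 paired diabetic mice. The labels number the animals within each group, and arrays of 1 animal repeat that animal.

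Each cytosolic ribosome consists of a small subunit, which reads the messenger RNA, and a large subunit, which joins the amino acids. Their proteins are made in matched amounts, and their messenger RNAs are among the most abundant in most cells. Many of these messenger RNAs start with a C followed by a run of C and T bases (U in the RNA), the 5′ terminal oligopyrimidine or TOP motif, through which mTOR signalling and LARP1 control their translation and storage. The kidney cortex consists mostly of proximal tubules, whose cells take back salts, sugars and proteins from the filtrate.

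Across the arrays the median spot signal over background was 25.3 to 209 intensity units for Alexa Fluor 546 and 14.6 to 107 for Alexa Fluor 647, and 30.5% to 57.4% of spots were called detected. After the dimmest 25% of clones had been left out, 11700 clones were tested. Of 13 listed proximal tubule markers, 3 were tested (Miox, Gatm and Lrp2). They were bright on these arrays, and all had low levels in diabetic mouse 3 (-0.89, -1.66 and -1.15). Its level of the distal tubule marker Calb1 was -1.36, and the glomerular markers Ehd3 and Podxl were at -0.34 and -0.33 there. In the other 5 animals the mean of the proximal tubule markers was 0.078 to 0.38. The erythroid markers Hbb-b1 and Alas2 averaged 0.29 in diabetic mouse 3, and the leukocyte marker Lyz2 was at -0.20 there. Levels are on the log2 scale, with the 6 animals averaging 0 for each clone, and differences are menopausal/diabetic minus diabetic on the log2 scale. They are relative to the other clones of the array, since each array was centred by loess. In 11 of the 12 scanner files each identifier goes with the same titled animal throughout, and the array of diabetic mice 2 and 3 is in doubt. Which identifier belongs to which animal was taken from the titles themselves. The match therefore cannot show which animals were menopausal/diabetic.

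Of the 170 ribosomal protein clones, 165 were tested (105 large, 60 small), so that all 71 genes had at least 1. The 5 untested clones, second clones of Rpl27, Rpl29, Rpl30, Rpl38 and Rps24, were detected on 0 of the 12 arrays. The tested clones had a median brightness percentile of 94.9, and 127 were detected on all 12 arrays. Complementary DNA clones can also bind RNA of processed pseudogenes and other close copies, which are common for ribosomal proteins, so a clone's value may include such RNA.

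Most ribosomal protein clones had lower levels in menopausal/diabetic mice. The median difference over the 165 clones was -0.11 (quartiles -0.23 and -0.016), against -0.0011 over all 11700 tested clones. Of the 165, 129 or 78.2% were lower, against 50.6% of all tested clones. Single clones ran from -0.46 to 0.46. By limma on the 6 animal levels, 0 of the 165 clones had an adjusted p under 0.05, as had 0% of all clones, and the smallest adjusted p of a ribosomal protein clone was 0.259. At an unadjusted p under 0.05, 40 clones were lower (24.2%), where 3.24% of all clones were, and 4 were higher (2.42%), where 5.23% of all clones were. The 3 menopausal/diabetic mice lay below the 3 diabetic mice for 43 clones (26.1%), against 6.62% of all clones, and above them for 4, against 7.72%. As the family was picked with this contrast in view, nothing is read from these shares. In cortex RNA, fewer cells of a type and less RNA per cell cannot be told apart.

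The difference rested largely on diabetic mouse 3. The median level of the 165 clones was -0.057 in menopausal/diabetic mouse 1, -0.039 in mouse 2 and -0.077 in mouse 3, against 0.030, -0.026 and 0.17 in diabetic mice 1, 2 and 3. Diabetic mouse 2 thus overlapped the menopausal/diabetic mice in sign, and diabetic mouse 3 stood above the other 5. The level of diabetic mouse 3 draws in part on the array in doubt, and levels without that array are not given here. On the array of diabetic mice 1 and 3, the median ratio of mouse 1 over mouse 3 was 0.15, the opposite direction. Among the diabetic mice, mouse 3 had the highest level for 119 of the 165 clones (72.1%), against 38.6% of all tested clones. Without diabetic mouse 3 the median difference was -0.011 over all members, 0.025 over the large subunit and -0.051 over the small subunit. Of the 57 genes that were lower by their brightest clone, 36 then kept less than 0.5 times their difference or turned sign, against 0 to 15 without any other animal. The same animal had the low tubule markers given above, and the part of that in the ribosomal values was not tested.

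**Figure D1:**
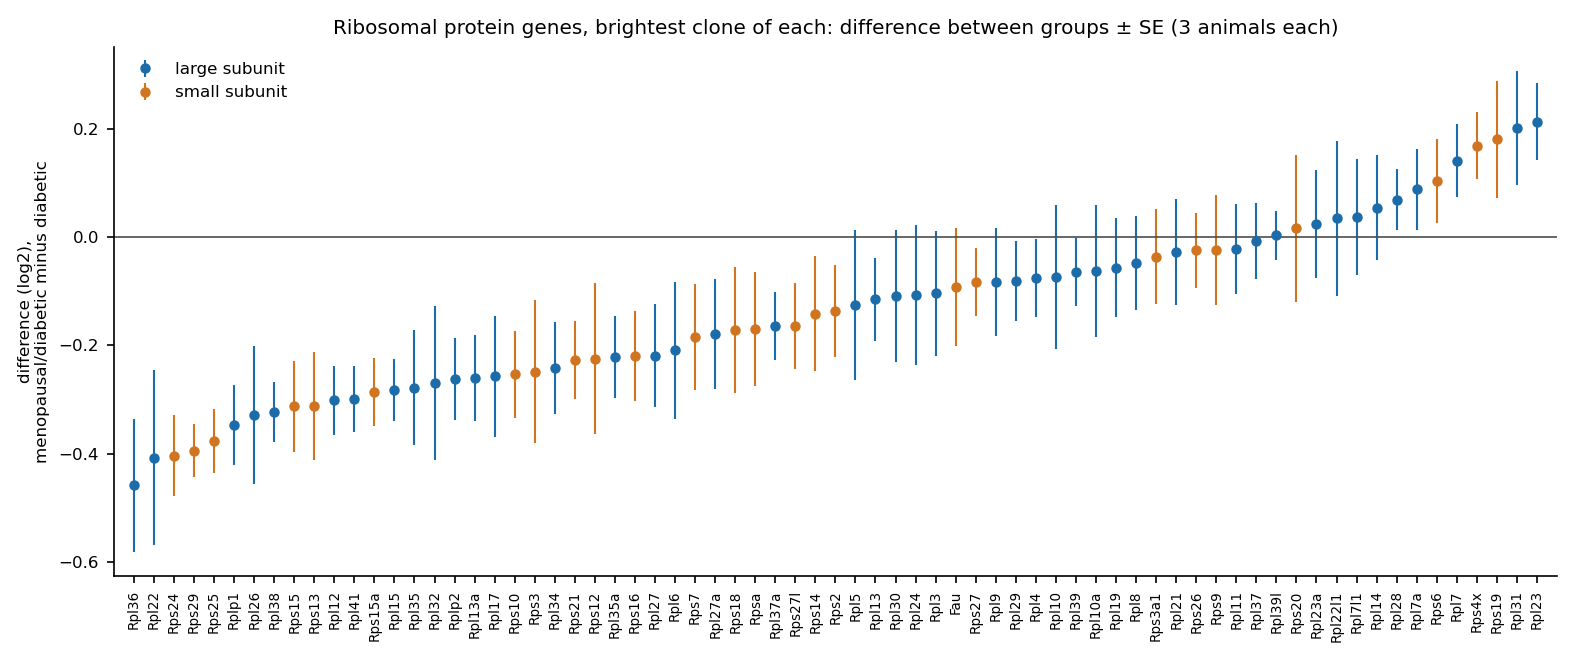
Difference between menopausal/diabetic and diabetic mice (log2, y axis) for the brightest clone of each of 71 ribosomal protein genes (x axis, sorted), with standard errors from limma over 3 animals a group; blue points are large subunit genes and orange points small subunit genes. Points of both subunits run from -0.46 to 0.21, and 57 of the 71 lie below 0.

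By subunit, the small subunit had the larger share of lower clones. Of the 60 small subunit clones 50 were lower, with a median of -0.14, and 17 (28.3%) had an unadjusted p under 0.05 on the lower side and 1 (1.67%) on the higher. Of the 105 large subunit clones 79 were lower, with a median of -0.076, and 23 (21.9%) had an unadjusted p under 0.05 on the lower side and 3 (2.86%) on the higher, where 3.24% and 5.23% of all tested clones did. With the brightest clone standing for each gene, 22 of 26 small subunit genes were lower (median -0.17) and 35 of 45 large subunit genes (median -0.11), against 48.9% of all named genes and a median of 0.0019. The difference between the subunits was not tested, and their quartiles overlapped, at -0.25 and -0.045 for the small and -0.22 and -0.0055 for the large subunit clones. The small subunit also had the lower median with each animal left out and with each alternative processing but 1. That was the deposited ratios as titled, used with their sign turned, where both medians were positive (0.066 large, 0.12 small). Some of the settings cannot change a difference and are no check of this order. They are the 6 arrays that pair the groups, same-numbered animals as pairs, and the fit without the array in doubt.

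Other clones of like brightness had medians nearer to 0. Between brightness percentiles 90 and 100, 115 ribosomal protein clones had a median difference of -0.10, against 0.032 for 1446 other clones. Between percentiles 80 and 90 the medians were -0.14 for 40 ribosomal protein clones and 0.0016 for 1520 others. Only 6 tested members lay between percentiles 70 and 80, with a median of -0.029 against -0.010 for 1554 others.

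The starts of the genes that rank lowest and highest below are shown because TOP motifs sit there. RefSeq promoters on build GRCm38.p6 were matched by symbol for 56 of the 71 genes, as 67 promoters. Each stretch below runs 5′ to 3′ on the gene's strand, from 30 bases before the RefSeq start to 20 bases from it on. Capitals mark a TOP-like run, a C followed by at least 4 C or T bases that starts within 10 bases of the RefSeq start. Where several C bases qualify, the run is taken from the one nearest the start, so C and T bases may precede it. Searched on the gene's strand alone, such a run was found in 55.2% of the 67 promoters, in 31.3% of the 6104 promoters of genes with a tested clone and in 30.7% of all 32851 RefSeq promoters. Taken from the nearest such C, it began exactly at the RefSeq start in 20.9%, 2.52% and 2.51% of them. These shares include starts inside a longer stretch of C and T bases. A run was found in 53.6% of small and 56.4% of large subunit promoters, and one exactly at the start in 25% and 17.9% of them. The ETS-like word CCGGAAG, searched on both strands of the 300 bases, was in 40.3% of the family's promoters, 18.9% of those of genes with a tested clone and 8.86% of all. The genes ranked lowest were these.
Rps25 (chr9:44407684-44407733, + strand): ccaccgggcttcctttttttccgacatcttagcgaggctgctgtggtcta
Rpl38 (chr11:114668550-114668599, + strand): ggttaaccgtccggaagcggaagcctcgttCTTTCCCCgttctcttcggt
Rps24 (chr14:24490648-24490697, + strand): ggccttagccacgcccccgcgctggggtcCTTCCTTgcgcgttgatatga
Rpl41 (chr10:128549149-128549198, - strand): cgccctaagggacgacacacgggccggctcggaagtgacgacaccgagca
Rpl15 (chr14:18270967-18271016, - strand): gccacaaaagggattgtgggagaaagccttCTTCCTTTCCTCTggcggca
Rpl12 (chr2:32961682-32961731, + strand): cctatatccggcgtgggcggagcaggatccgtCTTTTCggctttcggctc
Rps15a (chr7:118116128-118116177, - strand): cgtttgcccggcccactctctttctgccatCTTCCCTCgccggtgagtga
The genes ranked highest were these.
Rpl23 (chr11:97782420-97782469, - strand): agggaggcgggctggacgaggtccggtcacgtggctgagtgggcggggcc
Rps4x (chrX:102189372-102189421, - strand): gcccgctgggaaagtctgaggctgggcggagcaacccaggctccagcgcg
Rpl31 (chr1:39367821-39367870, + strand): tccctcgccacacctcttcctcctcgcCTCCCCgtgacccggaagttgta
Rps6 (chr4:86857348-86857397, - strand): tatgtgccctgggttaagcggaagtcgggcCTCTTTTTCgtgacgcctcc
Rpl28 (chr7:4792935-4792984, + strand): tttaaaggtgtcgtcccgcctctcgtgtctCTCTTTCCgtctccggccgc
Rpl7a (chr2:26910777-26910826, + strand): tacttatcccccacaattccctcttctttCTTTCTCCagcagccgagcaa
Rpl14 (chr9:120571487-120571536, + strand): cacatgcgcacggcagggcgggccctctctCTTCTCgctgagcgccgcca
Rpl7l1 (chr17:46782637-46782686, - strand): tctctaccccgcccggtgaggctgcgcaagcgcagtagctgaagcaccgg
Rps19, start A (chr7:24884562-24884611, + strand): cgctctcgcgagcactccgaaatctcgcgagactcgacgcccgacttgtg
Rps19, start B (chr7:24884646-24884695, + strand): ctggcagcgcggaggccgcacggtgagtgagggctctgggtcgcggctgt
Rps19, start C (chr7:24884883-24884932, + strand): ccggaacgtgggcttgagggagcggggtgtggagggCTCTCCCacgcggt
Among the 7 low-ranked genes shown, Rpl38, Rpl15 and Rps15a had a run marked from the very start, Rps24 one marked from the base before it and Rpl12 one from 2 bases after it. For Rpl15 and Rps24 the stretch of C and T bases, with a C that also qualifies, began further upstream. Rps25 and Rpl41 had none that began within 10 bases of the start. Among the 9 high-ranked genes shown, Rps6, Rpl28 and Rpl14 had a run marked from the very start, Rpl7a and Rpl31 one marked from before it. Rps19 had a run 6 bases after start C and none by its other RefSeq starts. For Rps6, Rpl28, Rpl14, Rpl7a and Rpl31 a C that also qualifies stood further upstream than the marked one. Rpl23, Rps4x and Rpl7l1 had no run that began within 10 bases of the start. Both ends of the ranking thus held starts with and without a run. Rps24 has a second RefSeq start without a run, which is not printed. A match is a description of these letters and no evidence of a site in use. Rps29, Rplp1, Rpl36 and Rpl7 are named without sequence.

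The lowest-ranked small subunit genes were Rps29, Rps25, Rps24 and Rps15a. Rps29 encodes a zinc-binding protein of the subunit's head. Its level was -0.22, -0.16 and -0.21 in menopausal/diabetic mice 1, 2 and 3, against 0.19, 0.15 and 0.25 in diabetic mice 1, 2 and 3. The groups did not overlap, and the level was 1.31-fold lower in menopausal/diabetic mice (-0.39 ± 0.048, SE, n = 3 each, limma adjusted p 0.259). Here and below, ± is the limma SE over the animal levels taken as separate values. It has no term of its own for array error. Rps25, which several viral RNAs need to recruit the ribosome, had -0.25, -0.11 and -0.21 in menopausal/diabetic mice, against 0.20, 0.12 and 0.24 in diabetic mice. Its groups did not overlap either, and the difference was -0.38 ± 0.059. Rps24, one of the proteins mutated in Diamond-Blackfan anaemia in humans, had -0.18, -0.23 and -0.20 in menopausal/diabetic mice, against 0.066, 0.34 and 0.20 in diabetic mice. Diabetic mouse 2 was its highest animal, the difference was -0.40 ± 0.075, and without menopausal/diabetic mouse 2 it was -0.26. Rps15a had -0.15, -0.10 and -0.18 in menopausal/diabetic mice, against 0.11, 0.067 and 0.26 in diabetic mice, a difference of -0.29 ± 0.063. These 4 genes kept their sign with any 1 animal left out.

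The lowest-ranked large subunit genes were Rpl38, Rpl41, Rpl15, Rpl12 and Rpl36, besides the stalk protein Rplp1. Rpl38 is needed in mouse embryos for the translation of certain Hox messenger RNAs. Its level was -0.13, -0.22 and -0.14 in menopausal/diabetic mice, against 0.092, 0.21 and 0.18 in diabetic mice, with no overlap and a difference of -0.32 ± 0.055. Leaving out menopausal/diabetic mouse 1 gave -0.17 for Rpl38, and leaving out menopausal/diabetic mouse 3 or diabetic mouse 1 gave -0.51 and -0.50. Rpl41, the smallest ribosomal protein, had -0.15, -0.097 and -0.20 in menopausal/diabetic mice, against 0.25, 0.12 and 0.083 in diabetic mice, a difference of -0.30 ± 0.061. For Rpl41 it was diabetic mouse 1, not mouse 3, that had the highest level. Rpl15 differed by -0.28 ± 0.058 and Rpl12, which helps to form the base of the stalk, by -0.30 ± 0.064. Rpl36 had the most negative difference of the family, -0.46 ± 0.12, a 1.37-fold lower level. Its level in diabetic mouse 3 was 0.51, against 0.088 and 0.094 in diabetic mice 1 and 2, and without mouse 3 the difference was -0.25. The limma adjusted p of the 10 lowest-ranked genes ran from 0.259 to 0.514.

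Replicate arrays scattered more for ribosomal protein clones than for the other clones. Around the fitted levels, arrays had a residual SD of 0.29 for Rps29, 0.20 for Rps25, 0.42 for Rpl38 and 0.55 for Rps24. It was lower for Rpl12 (0.11), Rps15a (0.14) and Rpl15 (0.15). Over the family the median residual SD was 0.313, against 0.180 over all tested clones and 0.291 over the other clones between brightness percentiles 90 and 100. The family's median SE of a difference was 0.086 from the animal levels and 0.11 from array error alone. Over all tested clones these were 0.069 and 0.071. For ribosomal protein clones, the ± values and unadjusted p can thus look more precise than array error allows. With the 12 arrays taken as replicates, which measures the groups against array error alone, 38 ribosomal protein clones were lower at an unadjusted p under 0.05 (23.0%), against 4.32% of all clones, and 1 was higher, against 5.42%. In that limma fit 1 member passed, the second clone of Rpl12 (adjusted p 0.0409), among 26 of all clones (0.222%). The fit was chosen after seeing the data and does not count animals.

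**Figure D2:**
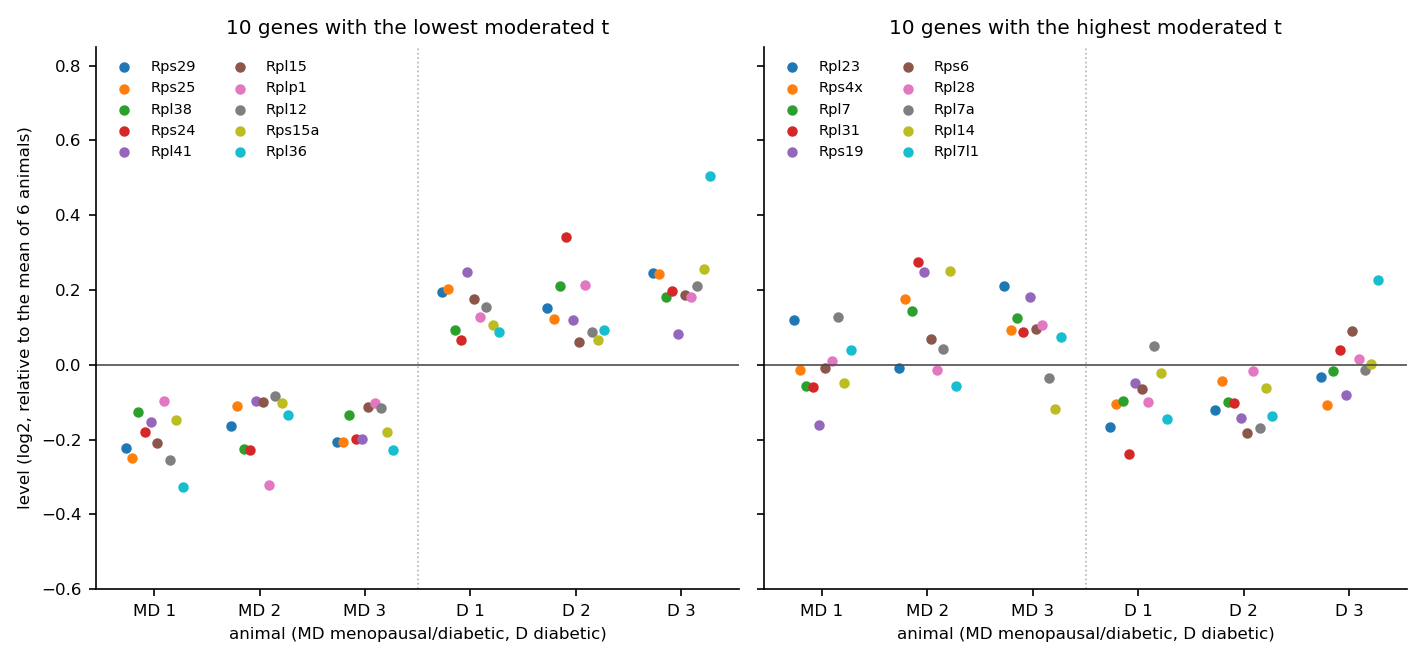
Level of each animal (log2, relative to the mean of the 6 animals, y axis) for the 10 ribosomal protein genes with the lowest (left) and the 10 with the highest (right) moderated t; colours mark genes and points are single animals of the menopausal/diabetic (MD) and diabetic (D) groups. For the 10 lowest genes no menopausal/diabetic point lies above 0 and no diabetic point below it, while the 10 highest genes overlap, apart from Rps4x and Rpl23.

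The highest-ranked genes were Rpl23, Rps4x, Rpl7, Rpl31 and Rps19. Rpl23, a large subunit protein that can bind the p53 regulator MDM2, had 0.12, -0.0095 and 0.21 in menopausal/diabetic mice, against -0.17, -0.12 and -0.032 in diabetic mice. The groups did not overlap, the difference was 0.21 ± 0.071, and it was 0.080 without menopausal/diabetic mouse 3, 0.098 without diabetic mouse 1 and 0.38 without diabetic mouse 3. Rps4x, an X-linked small subunit protein, had -0.015, 0.18 and 0.092 in menopausal/diabetic mice, against -0.10, -0.043 and -0.11 in diabetic mice. Its difference was 0.17 ± 0.062, and 0.094 without diabetic mouse 1, and its second clone had -0.016 ± 0.076. These were the 2 genes with an unadjusted p under 0.05 on the higher side by their brightest clone, with limma adjusted p of 0.523 and 0.554. Rps19, the gene most often mutated in Diamond-Blackfan anaemia in humans, had 0.18 ± 0.11 by its brightest clone but -0.29 ± 0.12 by its second, which was printed elsewhere on the slide (unadjusted limma p 0.0417) and whose groups did not overlap. Rpl31 had 0.20 ± 0.11 and Rpl7 0.14 ± 0.068. Rps6, the substrate of the S6 kinases, had 0.10 ± 0.078. Rpl28, Rpl7a, Rpl14 and Rpl7l1 closed the 10 highest, with differences of 0.069 ± 0.057, 0.088 ± 0.075, 0.055 ± 0.098 and 0.037 ± 0.11.

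Position on the slide moved with some of these values. In 3 of the 48 print blocks, in the upper left corner, an unadjusted p under 0.05 was reached by 32.1% of all tested clones and by 7.04% of those printed elsewhere. The 8 ribosomal protein clones printed there had a median difference of 0.19, and the 157 printed elsewhere -0.11. The brightest clones of Rps19 and Rpl31 were among those 8. With a loess curve per print block Rps19 had -0.15, Rpl31 -0.17 and Rpl23 -0.14.

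The P-stalk of the large subunit, which calls elongation factors to the ribosome, was represented by Rplp1 and Rplp2. The brightest clone of Rplp1 had -0.097, -0.32 and -0.10 in menopausal/diabetic mice, against 0.13, 0.21 and 0.18 in diabetic mice, a difference of -0.35 ± 0.074 that was -0.18 without diabetic mouse 3 and -0.23 without menopausal/diabetic mouse 2. Its other clones had -0.029 and 0.048, with overlapping groups. Rplp2 had -0.078, -0.12 and -0.20 in menopausal/diabetic mice, against 0.098, 0.022 and 0.27 in diabetic mice. Its difference was -0.26 ± 0.076. It was -0.035 without diabetic mouse 3 and -0.42 without diabetic mouse 2. Rpsa, a small subunit protein also known as a laminin receptor, had 6 tested clones, all lower, from -0.17 to -0.048, none with an unadjusted p under 0.05. For 5 of the 6, diabetic mouse 1 was the highest animal. Fau, which is made as a fusion of a ubiquitin-like protein with the small subunit protein eS30, had -0.092 ± 0.11 by its brightest clone. Its second clone had -0.28 ± 0.12, with groups that did not overlap and an unadjusted limma p of 0.0447.

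By their brightest clones, the paralogs Rpl7l1, Rpl22l1, Rpl39l and Rps27l had a median difference of 0.019 over these 4 genes, against -0.14 for the other 67, of which 56 were lower, and this difference was not tested. The paralogs were dimmer, with a median brightness percentile of 82.1 against 95.4. The remaining clones of Rpl7l1 were lower, at -0.14 and -0.065. Rpl39l was detected on 0 of 12 arrays and had 0.0034 ± 0.045. Rps27l, a p53-induced relative of Rps27, had -0.16 ± 0.080, which became -0.020 without diabetic mouse 3 and -0.040 without menopausal/diabetic mouse 2. Rpl22l1 had 0.035 ± 0.14, with diabetic levels that ran from -0.30 to 0.28. Its partner Rpl22 had -0.41 ± 0.16, with levels of 0.59 in diabetic mouse 3 and 0.040 and -0.021 in diabetic mice 1 and 2, and it had -0.16 without mouse 3. The second clone of Rpl22 had -0.019 ± 0.056.

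Differences among animals of a group, which the choice of the family did not use, were tested by limma's moderated F test against array error. Of the 165 clones 0 had an adjusted p under 0.05 among diabetic mice, where 1.6% of all clones had, and 0 among menopausal/diabetic mice, where 0% had. At an unadjusted p under 0.05 the counts were 8 among menopausal/diabetic mice (4.85%, against 5.16% of all clones) and 16 among diabetic mice (9.70%, against 12.9%). Brighter clones reached it more often among diabetic mice. Between brightness percentiles 90 and 100, 7.83% of members did, against 29.4% of other clones. Between percentiles 80 and 90 the shares were 15% and 23.1%. An adjusted p under 0.05 was reached by 5.46% of the other clones between percentiles 90 and 100. With the brightest clone standing for each gene, the smallest p among diabetic mice belonged to Rpl22l1 (adjusted p 0.0624) and Rps18 (adjusted p 0.0669), followed by Rpl27, Rpl10 and Rpl26. Rps18, a protein of the subunit's head, had 0.016, -0.060 and 0.30 in diabetic mice 1, 2 and 3, and diabetic mouse 3 was also the highest for Rpl27 (0.32), Rpl10 (0.35) and Rpl26 (0.41). Among menopausal/diabetic mice, again by brightest clones, the smallest p also belonged to Rps18 (adjusted p 0.901), at -0.24, 0.070 and -0.091 in mice 1, 2 and 3. Rpl30, Rpl6, Rps12 and Rpl26 followed, and menopausal/diabetic mouse 2 had the highest level for Rpl30 (0.22), Rpl6 (0.13) and Rpl26 (0.018).

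The 6 arrays that paired the groups did not all point the same way. The median log2 ratio of the family, menopausal/diabetic over diabetic, was -0.33 for mouse 2 over diabetic mouse 3 and -0.27 for mouse 1 over diabetic mouse 3. It was -0.13 for mouse 3 over diabetic mouse 2 and -0.035 for mouse 2 over diabetic mouse 1. On the other arrays it was 0.015 for mouse 3 over diabetic mouse 1 and 0.14 for mouse 1 over diabetic mouse 2. The 2 most negative arrays were thus those that carried diabetic mouse 3. Medians of the other tested clones lay close to 0 on all 6, where the loess centring of each array puts them. Among arrays within the diabetic group, the ratio of mouse 3 over mouse 2 was 0.24, on the array in doubt, while that of mouse 1 over mouse 3 was 0.15 and so opposed a high level in mouse 3. The mean of the 3 diabetic arrays around their loop, where animal levels cancel, was 0.19 for the family and -0.0068 for all clones, and that of the 3 menopausal/diabetic arrays was 0.052 and -0.010. In each of these ratios the numerator carried Alexa Fluor 647, and the fit has a dye term for each clone. The group difference was the same from the 6 arrays that pair the groups alone, with a median of -0.11 over the family. On these, each group carried each dye on 3 arrays, so a shift equal on all arrays cancels. The part of a dye shift that differs between arrays was not tested.

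Of the 165 clones, 7 (4.24%) were below 0 on all 6 arrays that paired the groups, against 1.33% of all tested clones, and 34 (20.6%) on at least 5, against 9.90%. Only 2 (1.21%) were below 0 on at most 1, against 10.7%. The brightest clones of Rps25, Rplp1, Rps15a and Rps10 were below 0 on 6 of 6 arrays, with Rps25 between -0.68 and -0.18 and Rps15a between -0.46 and -0.15. Rps29 was below 0 on 4 of 6, with ratios from -1.16 to 0.33, and Rpl41 on 3 of 6, with ratios from -0.99 to 0.19. For both genes every ratio above 0 came from an array on which the menopausal/diabetic mouse carried Alexa Fluor 647. Genes with like differences thus differed in how often single arrays shared their sign.

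**Figure D3:**
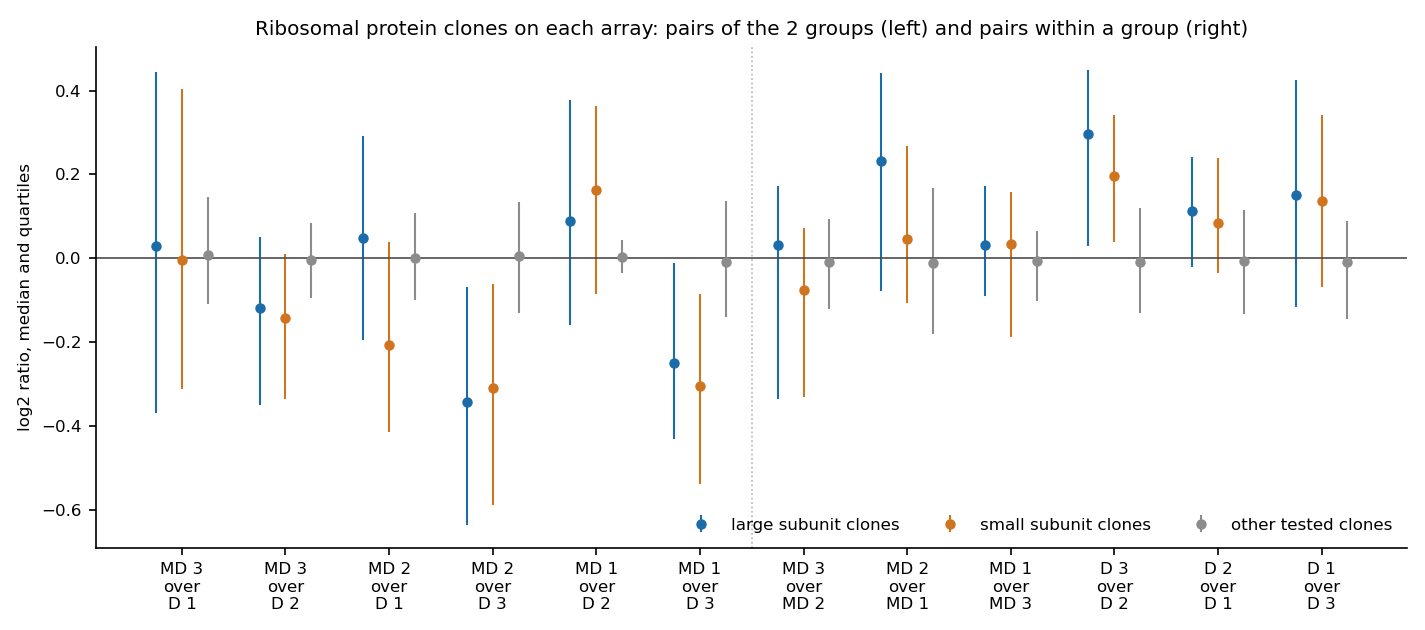
Median and quartiles of the log2 ratio (y axis) of large subunit clones (blue), small subunit clones (orange) and all other tested clones (grey) on each of the 12 arrays (x axis, animals as numerator over denominator; MD menopausal/diabetic, D diabetic), with pairs of the 2 groups on the left and pairs within a group on the right. The family's medians are lowest on the 2 arrays that pair a menopausal/diabetic mouse with diabetic mouse 3 (-0.33 and -0.27 over all members). The other clones stay near 0, where the loess centring of each array puts them.

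Clones of the same gene shared their sign for some genes and not for others. As 78.2% of the family's tested clones were lower, clones of different genes would often share a sign too. The counts here were not tested against that. Of the 44 genes with at least 2 tested clones (138 clones), 25 had all clones lower, 1 had all clones higher and 18 had clones on both sides. The gene with all clones higher was Rpl23, at 0.21, 0.074 and 0.21. Over the 12 arrays the median correlation of log2 ratios was 0.56 for 201 pairs of clones of 1 gene (quartiles 0.30 and 0.71) and 0.32 for pairs of clones of different ribosomal protein genes. It was 0.29 for pairs of different large subunit genes, 0.37 for different small subunit genes and 0.32 for pairs across the subunits. All points of such a correlation share the 12 arrays and their dyes. The median gap between the differences of 2 clones was 0.11 within a gene and 0.15 between genes.

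Among genes with several clones, Rps15a was lower by each of 3 clones, at -0.29, -0.32 and -0.42, all with an unadjusted p under 0.05 (limma adjusted p 0.307 to 0.429). For all 3 clones the menopausal/diabetic mice lay below the diabetic mice, and diabetic mouse 3 was the highest animal. Rps16 (-0.45 to -0.20), Rpl35 (-0.44 to -0.26), Rps10 (-0.28 to -0.10, 4 clones) and Rpl5 (-0.28 to -0.073, 5 clones) were also lower by each clone. Rpl35 rested on diabetic mouse 3, since the difference of its brightest clone was -0.075 without it, and that of Rps16 was -0.054 without menopausal/diabetic mouse 2. Rpl26 (-0.33 to -0.076), Rpl17 (-0.26 to -0.0099), Rpl37a (-0.16 to -0.061), Rpl15 (-0.28 to -0.042) and Rpl12 (-0.31 to -0.0083) completed the genes with 3 clones that were all lower.

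The most heavily represented genes had clones on both sides. Rpl7 had 8 tested clones, of which 7 were lower (-0.29 to -0.034), and the brightest was the one that was higher (0.14). Its lowest clone had -0.17, -0.12 and -0.14 in menopausal/diabetic mice, against 0.16, 0.12 and 0.15 in diabetic mice (limma adjusted p 0.259). Rpl4 also had 8, of which 2 were lower, and its clones ran from -0.076 to 0.46. The Rpl4 clone at 0.46 had levels of 0.34, 0.44 and -0.092 in menopausal/diabetic mice, against -0.25, -0.22 and -0.22 in diabetic mice, and the next highest Rpl4 clone had 0.090. Rpl3 had 5 of 7 clones lower (-0.21 to 0.076), Rpl10 3 of 5 (-0.074 to 0.22) and Rps15 3 of 5 (-0.31 to 0.21). Rpl31 had clones at 0.20, 0.25 and -0.24, of which the higher 2 were printed in the upper left blocks and the lower 1 elsewhere. The Rpl4 clone at 0.46 and the 2 Rps15 clones on the higher side were also printed in those blocks. Clones on both sides were also seen for Rps19 and Rps4x, with 2 clones each, and for Rpl23a, Rps18, Rps3a1, Rps6, Rpl6 and Rpl7l1, the paralog that had 2 of 3 clones lower.

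**Figure D4:**
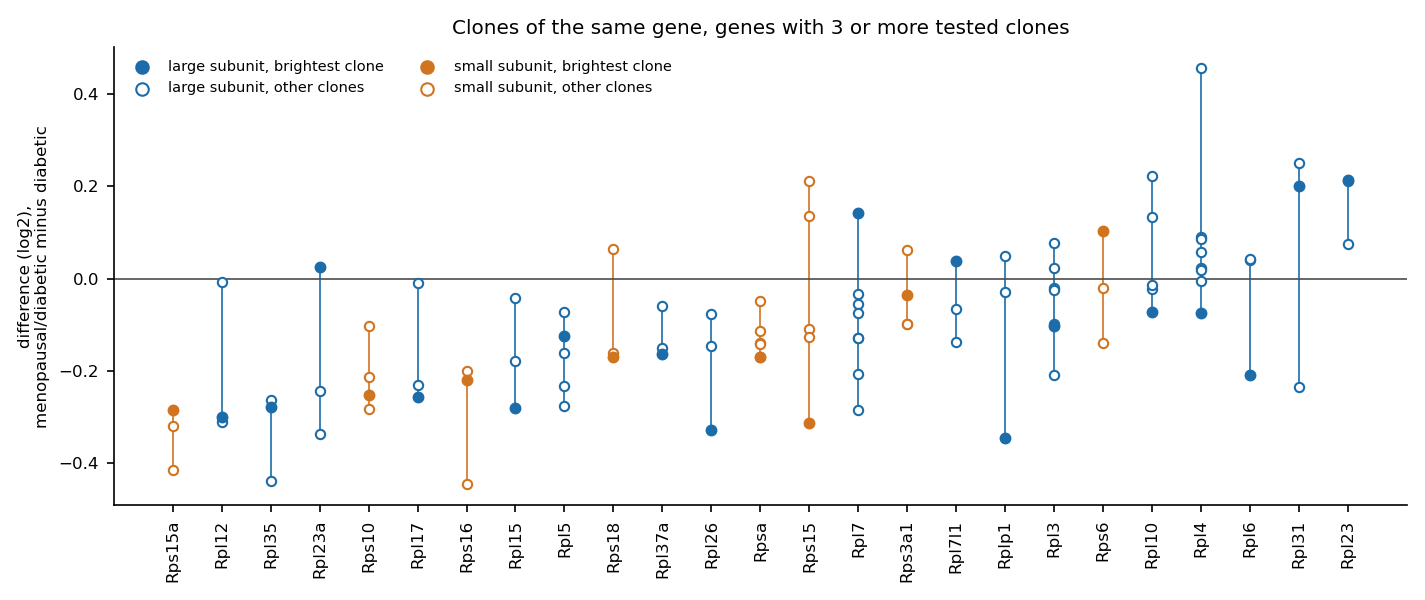
Difference between menopausal/diabetic and diabetic mice (log2, y axis) for every tested clone of the 25 ribosomal protein genes with at least 3 tested clones (x axis); filled points are the brightest clone, open points the others, blue the large and orange the small subunit. The 3 clones of Rps15a lie together between -0.42 and -0.29, whereas those of Rpl4 run from -0.076 to 0.46.

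Other genes of the translation machinery were counted the same way, by the brightest clone. The 41 tested mitochondrial ribosomal proteins, which translate the few proteins encoded in mitochondria, had a median difference of -0.096, and 32 were lower. The median was -0.051 without diabetic mouse 3 and -0.061 without menopausal/diabetic mouse 2. At an unadjusted p under 0.05, 8 were lower (19.5%) and 2 higher (4.88%), where 3.39% and 5.54% of all named genes were by their brightest clone. Mrpl20 had -0.19 ± 0.056 and Mrpl36 -0.26 ± 0.079, while Mrps10 had 0.21 ± 0.058 and Mrpl51 0.13 ± 0.051. Without diabetic mouse 3 Mrpl20 had -0.13 and Mrpl36 -0.11. Mrps10 had 0.066 without menopausal/diabetic mouse 2 and 0.081 without diabetic mouse 1, and Mrpl51 had 0.061 without menopausal/diabetic mouse 1, 0.073 without diabetic mouse 1 and 0.23 without menopausal/diabetic mouse 2. None of 41 RefSeq promoters of 36 such genes had a TOP-like run at the start (0%), and 41.5% had one within 10 bases of it.

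The 20 tested genes of TOP messenger RNAs outside the ribosome had a median of -0.025, and 11 were lower. At an unadjusted p under 0.05, 3 were lower (15%) and 0 higher. Btf3, part of the complex that shields new protein chains, had -0.34, -0.13 and -0.093 in menopausal/diabetic mice, against 0.12, 0.067 and 0.37 in diabetic mice, a difference of -0.38 ± 0.10. Eef1b2, an exchange factor of elongation factor 1, had -0.26 ± 0.092, which became -0.12 without diabetic mouse 3 and -0.43 without diabetic mouse 2. On the other side Eif3e, a subunit of initiation factor 3, had 0.14 ± 0.066 and the histone chaperone Nap1l1 0.20 ± 0.10. Eif3e had 0.064 without menopausal/diabetic mouse 1, and Nap1l1 had 0.10 without diabetic mouse 3 and 0.11 without menopausal/diabetic mouse 3. The list's median turned to 0.038 when arrays were scaled and to 0.027 with median centring, and without menopausal/diabetic mouse 2 or 3 it was 0.010 and 0.0064.

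Of the 27 tested ribosome biogenesis genes 19 were lower, with a median of -0.044 that was -0.0043 without diabetic mouse 3, and 0 were lower and 2 higher (7.41%) at an unadjusted p under 0.05. Ncl, the nucleolar protein nucleolin, had 0.21, 0.27 and 0.079 in menopausal/diabetic mice, against -0.19, 0.016 and -0.38 in diabetic mice, a difference of 0.37 ± 0.11 that was 0.18 without menopausal/diabetic mouse 1. Nop58, of the particles that methylate ribosomal RNA, had 0.24 ± 0.078 but was detected on 1 array, and it had 0.094 without menopausal/diabetic mouse 2. Nhp2 (-0.11 ± 0.048) and Nolc1 (-0.14 ± 0.075), both of small nucleolar particles, ranked first on the lower side, and with 1 animal left out they ran from -0.21 to 0.0011 and from -0.30 to -0.027. The 8 tested genes of a list drawn up around the control of TOP messenger RNAs had a median of 0.025, with 0 at an unadjusted p under 0.05. Among them Larp1 had 0.097 ± 0.061, Mtor 0.14 ± 0.15, Tsc1 -0.22 ± 0.19 and Myc -0.071 ± 0.12. By limma no gene of these 4 lists had an adjusted p under 0.05.

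**Figure D5:**
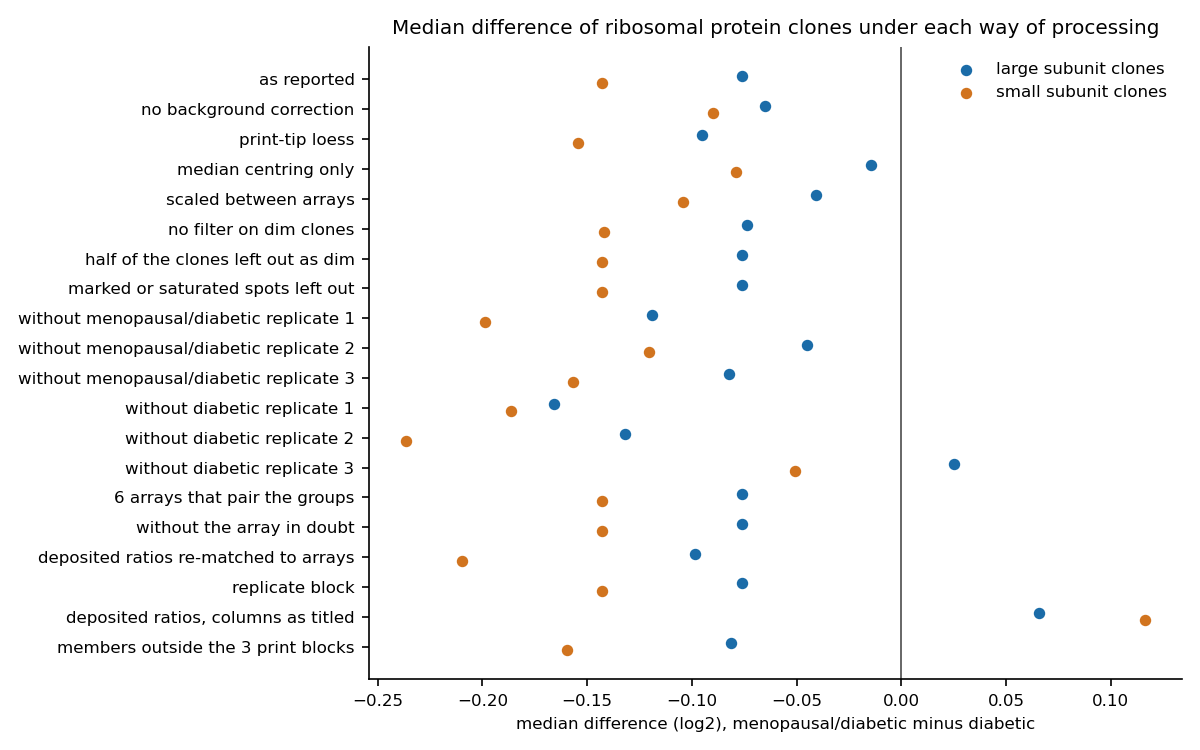
Median difference (log2, x axis, menopausal/diabetic minus diabetic) over the 105 large subunit clones (blue) and the 60 small subunit clones (orange) under each way of processing the arrays (y axis). Without diabetic replicate 3 the large subunit's median is 0.025 and the small subunit's is negative. Both are positive with the deposited ratios as titled, used with their sign turned, and negative in all other settings drawn.

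The direction also rests on the array titles. The authors' deposited log2 ratios did not match the arrays of the same title for any of the 12 columns. Every column matched another array with its sign turned. With these ratios kept under their own titles and their sign turned, the median of the ribosomal protein clones was 0.083 and 31 of 165 were lower. With the sign left as deposited, this direction would be the opposite. With each column moved to the array it matches, and its sign turned to match, the median was -0.15. As these ratios were fitted to the arrays in place and sign, this value is no separate check of the direction.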

How the data were processed

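Per the labels' protocols, total RNA of kidney cortex was amplified and its cDNA labelled with Alexa Fluor 546 or 647. An array's title names first the animal labelled 546, then the one labelled 647. The deposited scanner files hold, per the file headers, raw values, the mean intensity per spot and a local background (median) per channel. The authors also deposited a table of log2 ratios, and neither its normalization nor the scanner software is given in the sources used here. The deposited log2 ratios served as an alternative, since 0 of 12 columns matched their own array best and each matched another one with the sign turned (Spearman correlations across spots of -0.950 to -0.633). The sign of every column was therefore turned, both when the ratios were kept as titled and when they were re-matched.

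Clones were named by probe number through the platform's annotation. Of 384 ways to count the slide's axes, counting from the bottom row gave clones of 1 gene the most alike brightness (correlation 0.321 over 1719 pairs of genes outside the family, next way 0.0885), and it was used. Symbols were updated by gene number for 18170 spots.

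From these, limma 3.58.1 (R 4.3.3) made the ratios by normexp background correction with an offset of 50, loess within each array, the mean of the 2 spots of a clone, and the dimmest 25% of 15600 clones left out. Across arrays 23 spots without a background value were dropped. The 12 ratios of a clone gave, by least squares, a dye term and a level for each animal. Group means of the levels were then compared by lmFit and eBayes (two-sided), and p was adjusted by Benjamini-Hochberg over 11700 clones with a threshold of 0.05. Spot pairs of a clone correlated at 0.565 to 0.884 per array. An exact permutation test of 3 against 3 animals cannot reach a p of 0.05, whatever the values, and was not used. The fit was tested on simulated data before use. Of 50 clones given a log2 difference of 0.5, 19 were called at that threshold, and of 50 given a difference of 1, 45 were. Among the unchanged clones 6 were called. Ribosomal protein clones differed by at most 0.46 in either direction, so the absence of calls among them says little. Precision is set by having 12 arrays and 3 animals a group.

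Genes named are the 10 lowest and 10 highest by moderated t of the brightest clone, the 5 with the smallest F-test p in each group, genes with at least 3 tested clones, the paralogs, Rplp1, Rplp2, Rpsa and Fau, and the first 2 of each side of the other lists. Rpl22 was named after its values were seen, as the partner of Rpl22l1. The members and lists were chosen with earlier results of these data known. Animals with the same number did not deviate together (correlations across clones of -0.051, -0.36 and -0.16) and never shared an array, so the numbers were not taken as pairs.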

Additional observations from a re-analysis of the deposited data

How the results depend on the processing

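The lower median of ribosomal protein clones kept its sign in every setting run except the deposited ratios as titled, used with their sign turned (0.083 for all members, 0.066 for the large and 0.12 for the small subunit). That setting was chosen after seeing the data, as were the arrays taken as replicates and the exclusion of print blocks. The 6 arrays that pair the groups, the replicate block and the fit without the array in doubt cannot change a difference, so they are no check of its sign. The median over all members was -0.038 with median centring and -0.054 when arrays were scaled. The large subunit alone also turned without diabetic replicate 3 (0.025). With 1 animal left out the median ran from -0.18 to -0.011 for all members, from -0.17 to 0.025 for the large and from -0.24 to -0.051 for the small subunit. Leaving out 1 animal gave 0 to 46 clones of all with an adjusted p under 0.05, the 46 without diabetic replicate 2, and 0 to 1 member, then a clone of Rps15a. Arrays taken as replicates gave 26 clones and 1 member. The 129 lower clones became 31 with the deposited ratios as titled, and 90 to 141 with 1 animal left out. The 40 clones that were lower at an unadjusted p under 0.05 became 1 with median centring, 9 with the 6 arrays that pair the groups, 25 with re-matched deposited ratios, 0 with these ratios as titled and 15 to 57 with 1 animal left out. The 4 that were higher became 0 with print-tip loess and with the 6 arrays, 1 with median centring, with re-matched ratios and with arrays as replicates, 14 when arrays were scaled, 8 with ratios as titled and 2 to 11 with 1 animal left out. Under the replicate block, which treats same-numbered animals as pairs, 33 were lower and 4 higher, with unchanged medians, so the block changed no other call. Without an array in doubt 36 clones of all differed among diabetic mice, where 187 did with all arrays. The count was 52 without background correction and 314 with print-tip loess, which also gave 1 among menopausal/diabetic mice.

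The 10 lowest-ranked genes kept their sign in all 170 pairs of gene and setting, and the 10 highest turned in 20 of 170, counted without the deposited ratios as titled. With those, used with their sign turned, 9 of the 10 lowest and 59 of all 71 genes were higher. Among the settings counted, the 6 arrays that pair the groups, the other filters on dim clones, the replicate block and the fit without the array in doubt cannot change a gene's difference. Pairs with them, here and below, were fixed in advance and are no support for a kept sign. Over the 44 named genes, in the same settings, the sign turned in 48 of 747. With re-matched deposited ratios these were Rpl14 (-0.026), Rps19 (-0.070), Rpl31 (-0.079), Rpl7 (-0.0068), Rpl23 (-0.0073), Rpl4 (0.035) and Rpl39l (-0.023). Without background correction they were Rpl7l1 (-0.014), Rpl14 (-0.023), Rpl7a (-0.022), Rpl28 (-0.019), Rpl22l1 (-0.064), Rpl23a (-0.096), Rps3a1 (0.016) and Rpl39l (-0.0050), and with median centring Rps3a1 (0.016). Print-tip loess turned Rpl14 (-0.035), Rps19 (-0.15), Rpl31 (-0.17), Rpl23 (-0.14), Rpl30 (0.019), Rpl23a (-0.015), Rpl4 (0.074), Rps3a1 (0.11) and Rpl39l (-0.011). With 1 animal left out in turn the sign turned for 14 genes, whose differences ran from -0.16 to 0.23 for Rpl7l1, from -0.047 to 0.18 for Rpl14, from -0.012 to 0.22 for Rpl28, from -0.042 to 0.26 for Rpl7, from -0.14 to 0.18 for Rpl22l1, from -0.28 to 0.11 for Rpl10, from -0.28 to 0.068 for Rpl30, from -0.077 to 0.095 for Rpl23a, from -0.30 to 0.099 for Rpl3, from -0.14 to 0.0069 for Rpl4, from -0.29 to 0.045 for Rpl5, from -0.14 to 0.075 for Rps3a1, from -0.0099 to 0.017 for Rpl39l and from -0.27 to 0.10 for Fau. Of these turns, 4 came without diabetic replicate 1, 1 without replicate 2 and 6 without replicate 3, and 4, 2 and 6 without menopausal/diabetic replicates 1, 2 and 3. Of the 17 genes named from the other lists, Rpl22 included, the sign turned in 10 of 288 pairs of gene and setting. These were Nolc1 (0.0044) and Myc (0.018) without background correction, Mrpl51 (-0.020 with print-tip loess, -0.052 with re-matched ratios) and 5 genes with 1 animal left out, whose differences then ran from -0.21 to 0.0011 for Nhp2, from -0.51 to 0.21 for Tsc1, from -0.0085 to 0.16 for Larp1, from -0.027 to 0.31 for Mtor and from -0.14 to 0.046 for Myc. The median of the TOP genes outside the ribosome turned with median centring (0.027) and when arrays were scaled (0.038), and ran from -0.11 to 0.010 with 1 animal left out. That of the list drawn up around the control of TOP messenger RNAs turned with print-tip loess (-0.013) and re-matched ratios (-0.0048), and ran from -0.0090 to 0.062. The cause was not tested. Dim clones had few detected spots, and 3 animals a group set the precision.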
